A study of Mus musculus with 6 samples.

Results

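The genes described here are 10 mouse genes of cyclic nucleotide and natriuretic peptide signalling: the kinases Prkg1 and Prkg2, the natriuretic peptide receptors Npr1, Npr2 and Npr3, and the phosphodiesterases Pde5a, Pde3a, Pde3b, Pde1a and Pde2a. They are 10 of the 22253 genes named on the array. The genes were chosen from measured values of the comparison reported below, among them the place of Prkg1 near the lowest differences of all genes, so their differences are given as a description with no p-value. All probe sets whose only gene symbol in the platform annotation was the symbol of a member or its synonym were taken, which gave 267 of the 318760 probe sets with 1 symbol.

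RNA was measured in OP9 cells, which are stromal cells of mouse bone marrow that came from op/op mice lacking functional Csf1. All cells carried a stable lentiviral pLKO.1-puro hairpin. The Smo shRNA group (3 arrays) held a hairpin against Smoothened (Smo), the receptor component that passes on the Hedgehog signal, and the control shRNA group (3 arrays) held a scrambled hairpin. RNA of each stable line was isolated in triplicate and hybridised to Affymetrix Mouse Exon 1.0 ST arrays, which carry separate probe sets for the exons of a gene. Nothing states that the triplicates came from separate transductions or cultures, so the p-values cover no more than the spread among these RNA samples, and a difference of the lines with another origin than the hairpin cannot be told apart from its effect. The sources used here do not say how many hairpin sequences were used.

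Cyclic GMP is made by guanylyl cyclases, of which the soluble form answers nitric oxide and Npr1 and Npr2 are membrane forms that answer natriuretic peptides. The messenger acts through the cGMP-dependent kinases, through gated channels and through phosphodiesterases, which hydrolyse cGMP, cAMP or both and so link the levels of these messengers. In smooth muscle this pathway is known for relaxation, and in the growth plate of bone the peptide receptor Npr2 and the kinase Prkg2 are known for their part in cartilage growth.

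Promoter windows were searched for the cores of the factors SP1 and GLI. The printed windows are those that hold the SP1 core, which include both start sites that RefSeq lists for Prkg1, a gene known to make a pair of kinase isoforms from alternative starts. The window of Npr3, the member with the second widest difference, is printed as an example without the core. RefSeq windows of the build GRCm38.p6, from 250 bases before to 50 bases after a start, were matched for 7 of the 10 members (Prkg1, Npr1, Npr2, Npr3, Pde5a, Pde1a and Pde2a), giving 15 windows of 300 bases. The sequences run 5′ to 3′ on the strand of the gene, and capitals mark the SP1 core GGGCGG on either strand, with overlapping matches joined. The windows are chr19:31664321-31664620 (minus strand) and chr19:31764984-31765283 (minus strand) for Prkg1, chr3:90465817-90466116 (minus strand) for Npr1, chr15:11907322-11907621 (minus strand) for Npr3, chr3:122728908-122729207 (plus strand) for Pde5a and chr7:101451002-101451301 (plus strand) for Pde2a.
Prkg1 window 1: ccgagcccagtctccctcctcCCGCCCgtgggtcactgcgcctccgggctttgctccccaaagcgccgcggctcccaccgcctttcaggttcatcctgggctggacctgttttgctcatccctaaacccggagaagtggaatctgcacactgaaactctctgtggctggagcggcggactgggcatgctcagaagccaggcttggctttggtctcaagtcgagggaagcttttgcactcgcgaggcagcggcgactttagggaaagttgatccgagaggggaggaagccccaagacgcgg
Prkg1 window 2: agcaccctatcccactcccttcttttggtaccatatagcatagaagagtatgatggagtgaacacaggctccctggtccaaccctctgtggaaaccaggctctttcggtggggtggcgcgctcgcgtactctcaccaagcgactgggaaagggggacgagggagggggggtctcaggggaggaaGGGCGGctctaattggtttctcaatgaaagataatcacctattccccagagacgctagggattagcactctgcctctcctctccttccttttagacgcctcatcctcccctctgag
Npr1 window 1: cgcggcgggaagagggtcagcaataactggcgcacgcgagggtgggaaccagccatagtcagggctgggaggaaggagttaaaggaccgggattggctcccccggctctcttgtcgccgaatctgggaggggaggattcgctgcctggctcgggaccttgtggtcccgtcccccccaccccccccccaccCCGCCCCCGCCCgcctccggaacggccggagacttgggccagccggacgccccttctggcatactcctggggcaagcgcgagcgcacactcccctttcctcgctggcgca
Npr3 window 1: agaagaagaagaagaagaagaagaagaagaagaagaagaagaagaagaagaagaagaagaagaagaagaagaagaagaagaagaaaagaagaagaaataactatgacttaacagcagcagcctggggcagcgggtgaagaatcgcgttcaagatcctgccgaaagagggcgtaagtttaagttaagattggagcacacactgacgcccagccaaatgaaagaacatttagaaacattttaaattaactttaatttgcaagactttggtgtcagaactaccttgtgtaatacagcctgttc
Pde5a window 1: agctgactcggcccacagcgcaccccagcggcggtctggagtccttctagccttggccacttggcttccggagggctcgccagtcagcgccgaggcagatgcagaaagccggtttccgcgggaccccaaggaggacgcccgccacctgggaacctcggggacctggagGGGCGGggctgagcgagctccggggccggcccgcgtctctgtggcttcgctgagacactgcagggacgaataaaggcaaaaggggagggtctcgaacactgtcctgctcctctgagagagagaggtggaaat
Pde2a window 4: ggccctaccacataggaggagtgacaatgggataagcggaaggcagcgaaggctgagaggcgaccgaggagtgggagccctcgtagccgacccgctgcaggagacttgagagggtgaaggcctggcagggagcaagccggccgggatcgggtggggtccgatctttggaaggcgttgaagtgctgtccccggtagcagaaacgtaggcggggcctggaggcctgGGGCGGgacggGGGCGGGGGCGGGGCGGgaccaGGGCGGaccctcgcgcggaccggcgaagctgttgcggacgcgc
The SP1 core GGGCGG, bound by the general activator SP1, was present in 5 of the 15 windows, against 35.7% of the 32851 mouse promoters in the same table. It was found at 1 place in each window of Prkg1 and in that of Pde5a, which were lower with Smo shRNA, at 2 places in that of Npr1, which did not pass the threshold, and at 5 places in 1 of the 5 windows of Pde2a, which was higher. The windows of Npr3 (1) and Pde1a (4), which were lower, that of Npr2, which did not pass, and the other 4 windows of Pde2a held none. The core thus did not follow the direction of the members, and nothing is drawn from it. The GLI core CCACCCA, the letters known for the Hedgehog effectors, was in 0 of the 15 windows, against 9.30% of all promoters. This says only that these letters are not in these windows.

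The 6 arrays were much alike within a line. Pearson correlations over the 16916 genes tested lay between 0.996 and 0.998 within a line and between 0.979 and 0.981 across the lines. As a check of the labels, Smo read 11.32, 11.36 and 11.44 (log2) on the Smo shRNA arrays, against 12.29, 12.22 and 12.24 on the control shRNA arrays. The level was thus 1.83-fold lower with Smo shRNA, at -0.88 on the log2 scale with an SE of 0.04 (limma adjusted p = 1.14e-09).

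Of the 10 members, 5 were lower with Smo shRNA (Prkg1, Npr3, Pde5a, Pde1a and Pde3a), 3 were higher (Prkg2, Pde2a and Pde3b) and 2 (Npr1 and Npr2) did not pass the threshold, a limma p of 0.05 adjusted over all genes. Over all 16916 genes 38.6% passed, 17.4% lower and 21.2% higher, and nothing is read from the members' count because this comparison was known when they were chosen. The values of the Smo shRNA and control shRNA arrays did not overlap in 8 members, against 47.8% of all genes. The median log2 difference of the members was -0.11 and their median absolute difference 0.77, beside 0.01 and 0.11 over all genes tested. Levels are given as log2 array values, which compare arrays within a gene and not 1 gene with another. In RNA of whole cultures, fewer cells of a type and less RNA per cell cannot be told apart.

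**Figure D1:**
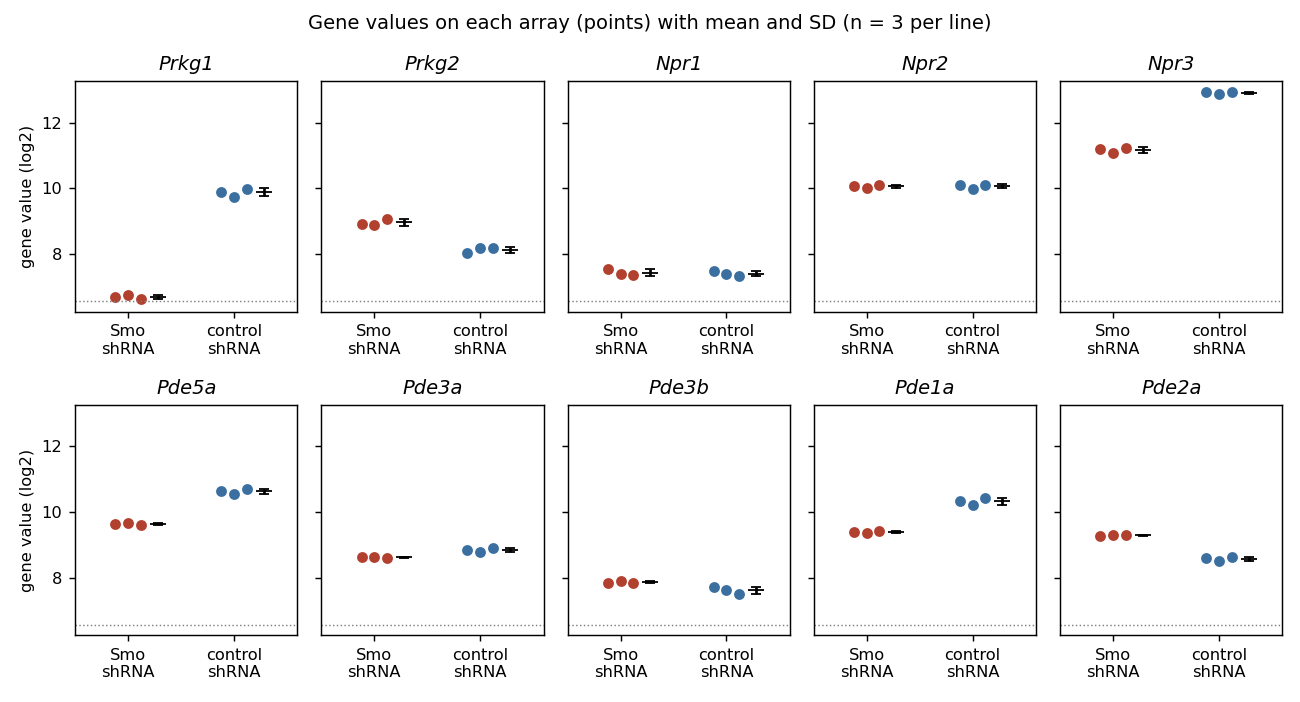
Gene values (log2) of the 10 members on each array, Smo shRNA left and control shRNA right, with points for arrays and marks for the mean and SD of 3 arrays; the dotted line is the filter level of 6.56. Prkg1 shows the widest gap of the members, 6.63 to 6.74 with Smo shRNA and 9.74 to 9.99 with control shRNA, while the points of Npr1 and Npr2 overlap.

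Among the kinases, the members moved in opposite directions. Prkg1, the soluble cGMP-dependent kinase that is abundant in smooth muscle and platelets, read 6.68, 6.74 and 6.63 on the Smo shRNA arrays, against 9.89, 9.74 and 9.99 on the control shRNA arrays. The groups stood far apart, with means of 6.68 ± 0.06 in Smo shRNA cells and 9.87 ± 0.12 in control shRNA cells (SD, n = 3 each). The log2 difference was -3.19 (SE 0.08), or 9.13-fold lower, and only 2 of the 16916 genes had a lower difference. The Smo shRNA mean lay next to the level of 6.56 used as filter.

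Of the 30 probe sets of Prkg1, 24 passed the filter, and 23 of these were lower and 1 higher with Smo shRNA. At probe set level, 21 of the 24 passed the threshold, all lower; across all kept probe sets with 1 symbol 24.5% passed. In 10 of the 24, the Smo shRNA mean lay below the filter level, so that they passed the filter through the control shRNA arrays and had to differ. In the other 14 the differences ran from -4.14 to 0.16, with a median of -2.19. Over all 30 probe sets, without a filter, 29 were lower and the median was -2.69.

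The probe sets of Prkg1 did not all show the difference. The brightest, 4588642, read 12.47, 12.33 and 12.21 on the Smo shRNA arrays, against 12.36, 12.41 and 12.29 on the control shRNA arrays. The next brightest, 5428796, read 11.32, 11.44 and 11.14 with Smo shRNA, against 11.45, 11.47 and 11.34 with control shRNA. In both the groups overlapped, with log2 differences of -0.02 and -0.12. In contrast, the probe set 5460498 read 8.25, 8.14 and 8.14 with Smo shRNA, against 11.44, 11.40 and 11.55 with control shRNA, a log2 difference of -3.29. Among the 14 with both means above the filter level, 5214039 had the widest difference, -4.14, with 6.73, 6.93 and 7.31 on the Smo shRNA arrays, against 11.07, 10.99 and 11.33 on the control shRNA arrays. The probe set that was higher, 4323720, differed by 0.16 and lay near the filter level.

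**Figure D2:**
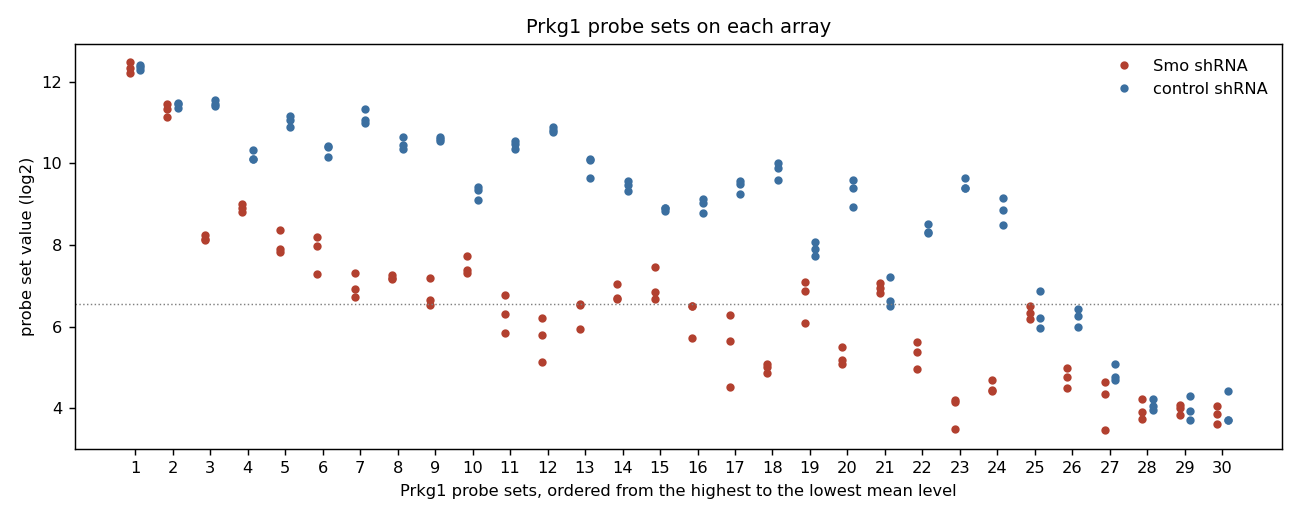
Values (log2) of every Prkg1 probe set on each array, ordered from the highest to the lowest mean over the 6 arrays, with Smo shRNA points left of control shRNA points; the dotted line is the filter level of 6.56. The 2 leftmost probe sets have overlapping points at 11 to 13, while most of the others show control shRNA points well above the Smo shRNA points.

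Prkg2, the membrane-anchored kinase known in cartilage, intestine and brain, read 8.91, 8.89 and 9.07 on the Smo shRNA arrays, against 8.03, 8.17 and 8.17 on the control shRNA arrays. No Smo shRNA array reached down to the control shRNA values, with means of 8.96 ± 0.10 and 8.12 ± 0.08 in Smo shRNA and control shRNA cells (SD, n = 3 each). The log2 difference was 0.84 (SE 0.07), or 1.78-fold higher. Of its 28 probe sets 16 passed the filter, 14 of them higher and 2 lower, and 10 passed the threshold, all higher. In 1 of the 16 the control shRNA mean lay below the filter level, and over the other 15 the median difference was 0.92. Its brightest probe set, 4926146, read 11.98, 11.82 and 12.08 with Smo shRNA, against 10.92, 11.06 and 11.14 with control shRNA. The 8 brighter kept probe sets had a median difference of 1.05 and the 8 dimmer ones of 0.16. Accordingly, the gene value depended on the filter. It was 0.33 with no filter, which brings in 12 dim probe sets, 10 of them lower. With the filter set at the 75th percentile it was 1.05. Over all 28 probe sets, 16 were higher and 12 lower, with a median difference of 0.16.

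The natriuretic peptide receptors differed among themselves. Npr3, the clearance receptor, which binds the peptides but has no guanylyl cyclase domain, read 11.18, 11.06 and 11.23 on the Smo shRNA arrays, against 12.94, 12.88 and 12.93 on the control shRNA arrays. The means were 11.16 ± 0.09 in Smo shRNA cells and 12.92 ± 0.03 in control shRNA cells (SD, n = 3 each), and the groups did not overlap. The log2 difference was -1.76 (SE 0.04), or 3.38-fold lower, the second widest among the members.

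All 18 probe sets of Npr3 passed the filter, and each of the 18 was lower and passed the threshold, with differences from -2.49 to -0.81. Of these, 4852630, at -2.48, had a Smo shRNA mean of 6.22, below the filter level, and passed the filter through the control shRNA arrays; the other 17 had a median difference of -1.70. The brightest probe set, 4706971, read 13.13, 12.99 and 13.07 with Smo shRNA, against 14.27, 14.19 and 14.27 with control shRNA, a log2 difference of -1.18. The smallest difference, -0.81, was that of 5163450, the next brightest. The 9 brighter probe sets had a median difference of -1.59 and the 9 dimmer ones of -2.18. The deposited values reached at most 15.14.

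Npr1, the guanylyl cyclase receptor for atrial and brain natriuretic peptides, read 7.55, 7.38 and 7.36 on the Smo shRNA arrays, against 7.49, 7.37 and 7.34 on the control shRNA arrays. The groups overlapped, at 7.43 ± 0.11 in Smo shRNA cells and 7.40 ± 0.08 in control shRNA cells (SD, n = 3 each), with a log2 difference of 0.03 (SE 0.08). Its 23 kept probe sets of 28 differed by -0.29 to 0.39, 15 of them higher and 8 lower. Npr2, the guanylyl cyclase receptor for C-type natriuretic peptide, read 10.06, 10.02 and 10.10 with Smo shRNA, against 10.11, 9.98 and 10.10 with control shRNA. The groups of Npr2 overlapped as well, at 10.06 ± 0.04 in Smo shRNA cells and 10.06 ± 0.07 in control shRNA cells, and its 24 kept probe sets of 25 were split evenly, 12 higher and 12 lower, between -0.17 and 0.27. The receptors that make cGMP thus differed by less than the spread between arrays, which does not show that they were equal.

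Among the members that are phosphodiesterases, Pde5a, Pde1a and Pde2a differed most. Pde5a, the cGMP-specific enzyme inhibited by sildenafil, read 9.62, 9.66 and 9.61 on the Smo shRNA arrays, against 10.64, 10.54 and 10.71 on the control shRNA arrays. With means of 9.63 ± 0.03 in Smo shRNA cells and 10.63 ± 0.08 in control shRNA cells (SD, n = 3 each), the log2 difference was -1.0 (SE 0.05), or 2.0-fold lower. Of 19 probe sets 16 passed the filter, of which 15 were lower and 13 passed the threshold, all lower. The brightest, 4631355, read 12.20, 12.07 and 12.15 with Smo shRNA, against 12.86, 12.86 and 12.90 with control shRNA. Of the 16, 2 showed next to no difference: 5246089 at -0.04 and 4710290 at 0.07. When the gene value was the median of its probe sets instead of a median polish, the log2 difference of Pde5a was -0.64.

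Pde1a, an enzyme switched on by calcium and calmodulin, read 9.38, 9.35 and 9.43 on the Smo shRNA arrays, against 10.33, 10.21 and 10.43 on the control shRNA arrays. The groups did not overlap, at 9.39 ± 0.04 in Smo shRNA cells and 10.32 ± 0.11 in control shRNA cells (SD, n = 3 each). The log2 difference was -0.94 (SE 0.06), or 1.91-fold lower. All 20 kept probe sets of 29 were lower, from -1.34 to -0.16, and 18 passed the threshold. As in Npr3, no kept probe set was higher.

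Pde2a, which hydrolyses both messengers and is stimulated by cGMP, read 9.25, 9.28 and 9.31 on the Smo shRNA arrays, against 8.59, 8.51 and 8.63 on the control shRNA arrays. The means were 9.28 ± 0.03 in Smo shRNA cells and 8.58 ± 0.06 in control shRNA cells (SD, n = 3 each), with no overlap. Pde2a was thus higher by 0.71 (SE 0.06) on the log2 scale, or 1.63-fold. Of 39 probe sets 36 passed the filter and 32 of these were higher. At probe set level 25 passed the threshold as higher and 1 as lower. The exception, 5223770, read 10.25, 10.10 and 9.91 with Smo shRNA, against 10.90, 10.75 and 10.77 with control shRNA, a log2 difference of -0.72. It was the fourth brightest probe set of Pde2a, and the second and the third, 5565346 and 5520797, differed by -0.02 and -0.03.

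The cAMP enzymes that cGMP inhibits differed little. Their directions were opposite with the filter used here, but the sign of Pde3b depended on the filter. Pde3a, known in heart, vessels and oocytes, read 8.64, 8.62 and 8.60 on the Smo shRNA arrays, against 8.83, 8.78 and 8.91 on the control shRNA arrays. These values differ by -0.22 (SE 0.06) on the log2 scale, or 1.16-fold lower, and 20 of its 22 kept probe sets were lower. At probe set level only 3 of the 22 passed the threshold, all lower, where 24.5% of all kept probe sets with 1 symbol passed. The threshold was missed with the median of probe sets and without Smo shRNA replicate 1 or Smo shRNA replicate 2. Over the 6 fits that each left out 1 array the difference ran from -0.24 to -0.16.

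Pde3b, known in fat cells and liver for the action of insulin, read 7.85, 7.91 and 7.84 on the Smo shRNA arrays, against 7.70, 7.63 and 7.51 on the control shRNA arrays. The log2 difference was 0.25 (SE 0.08), or 1.19-fold higher. Of its 26 probe sets only 10 passed the filter, and 7 of the 10 were higher. At probe set level 3 of the 10 passed the threshold, all higher. The brightest, 4898452, read 12.03, 12.16 and 11.91 with Smo shRNA, against 12.06, 12.10 and 12.11 with control shRNA, and the groups overlapped. The 5 brighter kept probe sets had a median difference of -0.06 and the 5 dimmer ones of 0.66. The dimmest kept probe set, 4356011, had a control shRNA mean of 6.38, below the filter level, and passed the filter through the Smo shRNA arrays. Over the other 9 the median difference was 0.14. The direction turned with the stricter filter, where the difference was -0.10. It was 0.12 without control shRNA replicate 3 and 0.17 without control shRNA replicate 2, and in these cases too the threshold was missed. With no filter the difference was 0.41 and passed the threshold, and 15 of the 16 dim probe sets were higher. The sign of Pde3b therefore depends on the filter, and its size on the filter and on the control shRNA arrays.

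**Figure D3:**
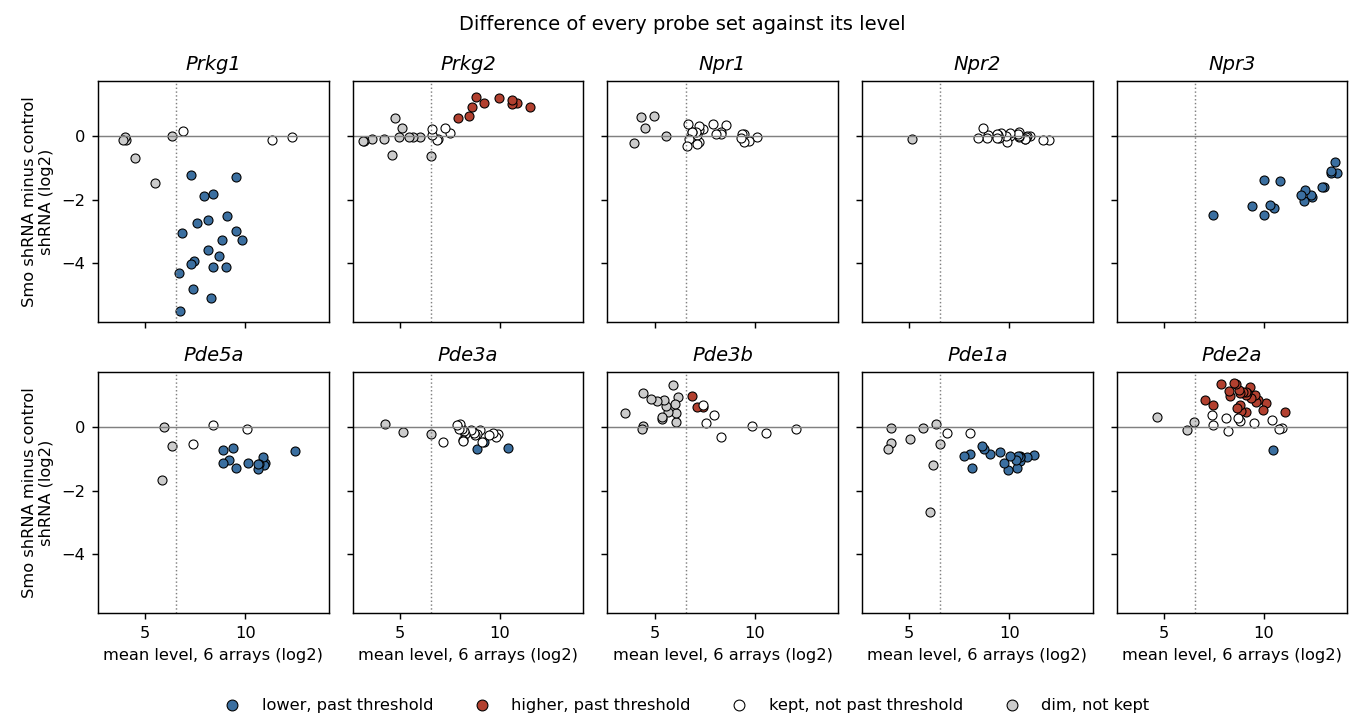
Log2 difference, Smo shRNA minus control shRNA, of every member probe set against its mean level over the 6 arrays; the dotted line is the filter level of 6.56. Kept Prkg1 probe sets spread from -5.53 to 0.16 with the brightest near 0, and those beyond -4.14 passed the filter through the control shRNA arrays, all 18 probe sets of Npr3 lie below 0, and the brightest Pde3b probe sets lie near 0 while dimmer ones lie above it.

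Over all members, 209 of the 267 probe sets passed the filter and 58 did not. Of the 209, 74 passed the threshold as lower, 38 as higher and 97 did not pass it, where 24.5% of all kept probe sets with 1 symbol passed; nothing is read from this count, since the members were chosen on the same comparison. The kept probe sets nearest the filter level were those of Prkg2, 5403182 and 5313925, with means of 6.58 and 6.61 and differences of 0.22 and 0.03, and that of Npr1, 5138880, with 6.63 and -0.29. Just below it lay 5286697 of Prkg2, 5603446 of Pde3a and 5019803 of Pde2a, with means of 6.56, 6.55 and 6.53 and differences of -0.63, -0.21 and 0.19.

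**Figure D4:**
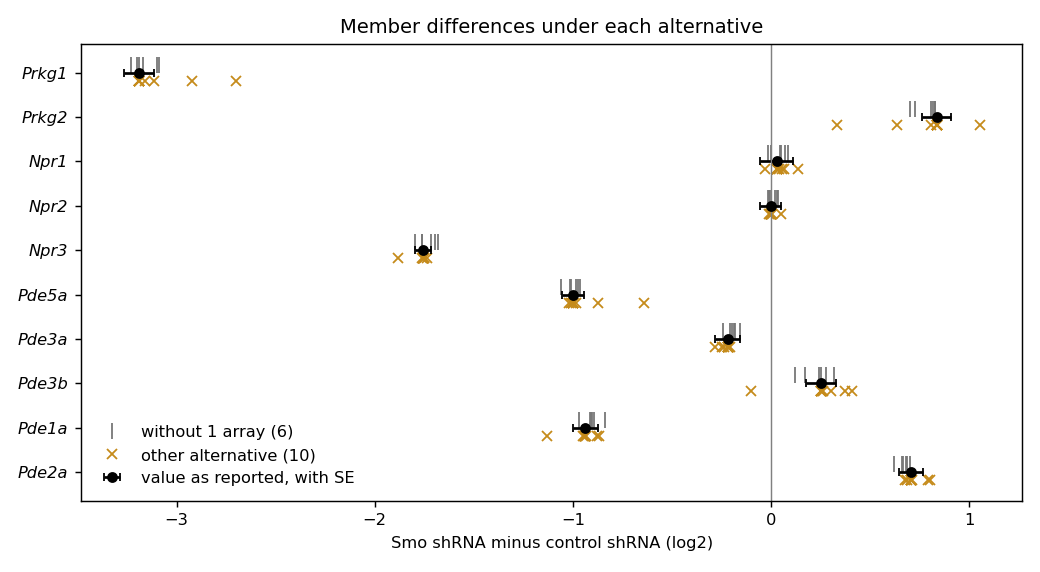
Log2 difference, Smo shRNA minus control shRNA, of each member as reported, with its SE, and under 16 alternatives, 6 of them with 1 array left out. Npr3 stays between -1.88 and -1.68 and Pde2a between 0.62 and 0.80, Prkg2 ranges from 0.33 to 1.05, and Pde3b crosses 0.

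The other genes of the pathway were read from 6 lists, in which 70 of 74 genes had enough probe sets to be tested. Of these, 14 rose, 6 fell and 50 did not pass the threshold (limma, adjusted over all genes), where 21.2% of all genes rose, 17.4% fell and 38.6% passed in either direction. These shares are the background of each list below as well. In the 70 genes the median log2 difference was 0.01, the same as over all genes. The lists were compiled with results of these data known, and no member stands in them.

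In the nitric oxide and guanylyl cyclase list, which holds nitric oxide synthases, their binding partners and guanylyl cyclases, none of the 14 genes passed the limma threshold; 0 did so at an unadjusted p of 0.05 and 0 without the variance trend. Nosip, which binds nitric oxide synthase, differed by 0.06 (SE 0.06, limma adjusted p = 0.508), and Gucy1a2, a subunit of soluble guanylyl cyclase, by 0.03 (SE 0.10, limma adjusted p = 0.894). The median difference of the list was 0.03. Low signal limits these results. With no filter on dim probe sets, Nostrin, Gucy1a2, Gucy1b1, Gucy1b2, Gucy2c and Gucy2f had means below the filter level in both groups. The other genes of the list lay above it. Gucy1a2, for example, kept 4 of 13 probe sets. Its means without the filter were 5.41 with Smo shRNA and 5.39 with control shRNA. In the lists below, the tested genes Nppa, Pde1c, Pde6b, Pde6c, Pde7b and Pde8a also had unfiltered means below the filter level in both groups. So did Pde11a, Kcnma1, Trpc6, Cnga2 and Pkib. For such dim genes, the lack of a call does not show that they were expressed and unchanged.

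Among the natriuretic peptides and the proteases that process or degrade them, 2 of 9 genes tested rose, 1 fell and 6 did not pass, with a median difference of -0.06. Mme, the cell-surface peptidase neprilysin that degrades natriuretic peptides, averaged 12.15 ± 0.07 in Smo shRNA cells and 13.08 ± 0.04 in control shRNA cells (SD, n = 3 each). It fell by 0.93 on the log2 scale (SE 0.04, limma adjusted p = 3.84e-10). Ide, which cleaves insulin and atrial natriuretic peptide, rose by 0.40 (SE 0.04, limma adjusted p = 5.63e-06). Furin, a protease of peptide precursors, rose by 0.11 (SE 0.04, limma adjusted p = 0.0433), a call that was lost in 10 of 16 alternatives, among them each of the 6 that left out 1 array. Nppc, which encodes C-type natriuretic peptide, differed by -0.06 (limma adjusted p = 0.555), and Guca2b, a gut peptide, by 0.12 (limma adjusted p = 0.221). Ostn, a ligand of Npr3, had too few kept probe sets and was not tested.

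Among the other phosphodiesterases, 4 of 18 rose, 1 fell and 13 did not pass, with a median difference of 0.02. Pde8b, a cAMP-specific enzyme, averaged 10.38 ± 0.09 in Smo shRNA cells and 9.08 ± 0.09 in control shRNA cells (SD, n = 3 each) and rose by 1.30 (SE 0.06, limma adjusted p = 3.27e-09). Pde1b, a calmodulin-activated relative of Pde1a, averaged 8.39 ± 0.13 in Smo shRNA cells and 9.60 ± 0.11 in control shRNA cells. It fell by 1.21 (SE 0.08, limma adjusted p = 4.00e-08). Pde1c, named here after its value was seen, differed by 0.00 (limma adjusted p = 0.981). But Pde1c kept only 12 of 30 probe sets. Its means without the filter, 5.84 with Smo shRNA and 5.81 with control shRNA, lay below the filter level. The value of Pde1c thus does not show that it was expressed and unchanged. Pde10a, which acts on both messengers, rose by 0.78 (SE 0.05, limma adjusted p = 6.13e-08). The cAMP-specific enzymes Pde4b and Pde7a rose by 0.69 (SE 0.08, limma adjusted p = 7.08e-06) and 0.19 (SE 0.05, limma adjusted p = 0.00865). The call of Pde7a was lost with the median of probe sets and without control shRNA replicate 1. Pde4d differed by 0.08 (limma adjusted p = 0.0800) and Pde4a by 0.01 (limma adjusted p = 0.903). Pde4d passed as higher with the stricter filter and without Smo shRNA replicate 3. With the median of probe sets its sign turned, and it passed as lower (-0.25).

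Among partners and substrates of the cGMP kinases, 2 of 13 genes tested rose, 2 fell and 9 did not pass, with a median difference of -0.01. Rgs2, a brake on Gq signalling that Prkg1 phosphorylates, averaged 10.16 ± 0.09 in Smo shRNA cells and 8.94 ± 0.07 in control shRNA cells (SD, n = 3 each), and rose by 1.22 (SE 0.06, limma adjusted p = 5.32e-09). Ppp1r12a, the myosin phosphatase subunit that this kinase targets, fell by 0.49 (SE 0.05, limma adjusted p = 2.13e-06), and the small heat shock protein gene Hspb6 fell by 0.19 (SE 0.03, limma adjusted p = 0.000543). Crip2 rose by 0.07 (SE 0.03, limma adjusted p = 0.0485), which was lost in 12 of 16 alternatives, among them those without Smo shRNA replicate 2 or 3 and without control shRNA replicate 2 or 3. Lasp1 and Gtf2i did not pass, at -0.03 (limma adjusted p = 0.483) and -0.06 (limma adjusted p = 0.241). Pln had too few kept probe sets and was not tested.

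Of the cGMP-gated channels and exporters, 1 of 6 genes tested rose and 5 did not pass, with a median difference of -0.03. Abcc4, a transporter that carries cyclic nucleotides out of cells, averaged 12.09 ± 0.01 in Smo shRNA cells and 11.44 ± 0.05 in control shRNA cells (SD, n = 3 each), and rose by 0.65 (SE 0.04, limma adjusted p = 9.17e-09). Its relative Abcc5 differed by -0.11 (limma adjusted p = 0.187), and passed the threshold as lower with the mean and with the median of probe sets. The channel gene Cnga3 differed by -0.04 (limma adjusted p = 0.773). Cnga1 and Cngb3 had too few kept probe sets.

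The cAMP-dependent kinase list, the sister pathway, had 5 of 10 genes that rose, 2 that fell and 3 that did not pass, with a median difference of 0.11. Prkar2a, a regulatory subunit, rose by 0.72 (SE 0.04, limma adjusted p = 7.52e-09), and Prkar2b, its relative, by 0.24 (SE 0.04, limma adjusted p = 9.40e-05). Prkx, a related catalytic kinase, rose by 0.26 (SE 0.04, limma adjusted p = 7.27e-05) and the catalytic subunit Prkaca by 0.19 (SE 0.04, limma adjusted p = 0.00137). Of those that fell, the kinase inhibitor Pkia differed by -0.18 (SE 0.04, limma adjusted p = 0.00120), and the regulatory subunit Prkar1b, named here after its value was seen, by -0.22 (SE 0.05, limma adjusted p = 0.00461). Prkacb and Pkig did not pass, at -0.01 (limma adjusted p = 0.923) and 0.08 (limma adjusted p = 0.329).

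**Figure D5:**
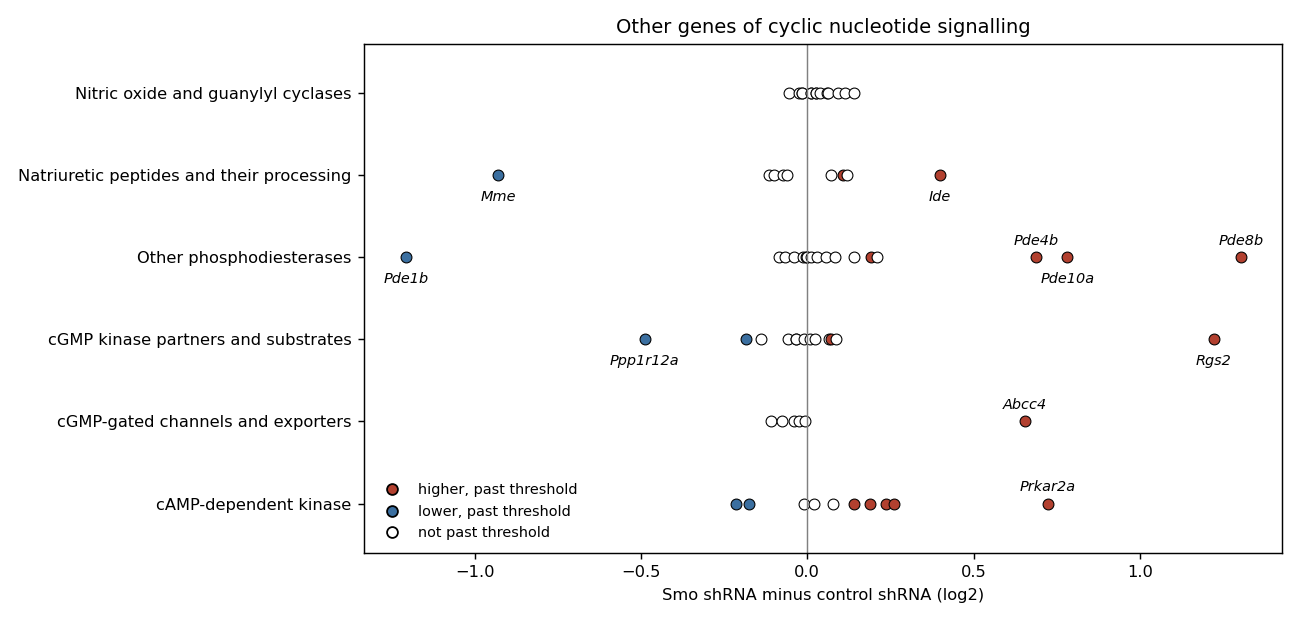
Log2 difference, Smo shRNA minus control shRNA, of each gene of the 6 pathway lists, 1 row per list. The nitric oxide and guanylyl cyclase genes gather near 0, and Pde8b at 1.30, Rgs2 at 1.22 and Pde1b at -1.21 lie farthest from it.

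The genes whose values were most like those of Prkg1 were found by the root mean square distance of the 6 array values, each gene set to 0 at its control shRNA mean, over 16906 genes that are not members. They were Colec10 at a distance of 0.137, Postn at 0.182, C3 at 0.227, Aldh1a7 at 0.334, A630052E07Rik at 0.491 and Itga1 at 0.529, all in log2 units. Their log2 differences were -3.35, -2.97, -2.88, -2.75, -3.79 and -2.45. The measure picks genes with a difference of like size, and these values are given with no test.

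Markers of other cell types were read beside these results. In the smooth muscle and pericyte list, a cell type in which Prkg1 and Pde5a are known to be abundant, 6 of 12 genes were lower, 3 were higher and 3 did not pass. The mean level of the list ran from 9.69 to 9.76 on the Smo shRNA arrays and from 9.93 to 9.98 on the control shRNA arrays. Named here after their values were seen, Acta2 differed by -0.75, Cnn1 by -1.14 and Rgs5 by -1.52, and Mcam, Notch3 and Des, which were higher, by 1.30, 0.51 and 0.43. In the stromal list, which stands for the labelled cell type, 6 of 9 genes were lower, 0 were higher and 3 did not pass. Its mean level ran from 11.28 to 11.34 with Smo shRNA and from 11.51 to 11.53 with control shRNA. None of the 6 endothelial, 5 haematopoietic or 4 epithelial genes tested passed the limma threshold, 0 did so at an unadjusted p of 0.05 and 0 without the variance trend. The endothelial list had mean levels of 7.54 to 7.72 with Smo shRNA and 7.57 to 7.71 with control shRNA. The haematopoietic list had 7.67 to 7.83 with Smo shRNA and 7.65 to 7.79 with control shRNA, and the epithelial list 7.99 to 8.09 with Smo shRNA and 8.0 to 8.08 with control shRNA. No marker tested in these lists read 0 on an array. This does not show that the markers were expressed, since their levels come only from probe sets that passed the filter. Pecam1 kept 10 of 22 probe sets, Tek 10 of 31, Kdr 9 of 35, Emcn 6 of 19 and Ptprc 10 of 53. The other tested endothelial, haematopoietic and epithelial markers kept more probe sets than they lost. The part of these markers in the results above was not tested.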

How the data were processed

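The samples, 3 with Smo shRNA and 3 with control shRNA, were grouped by their titles. The authors deposited log2 values for 1256831 probe sets, a scale inferred from their range (0 to 15.14). Array medians lay between 6.56 and 6.59. How they were summarised and normalized, and the build of the array annotation: not given in the sources used here. Among all probe sets, 20744 (1.65%) read 0 on every array; none had a gene, and they were left out.

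Gene names came from the platform annotation: 318760 probe sets had 1 symbol, 6684 several (left out) and 931387 none. Of 22296 symbols, 18006 were current in RefSeq, 4077 were updated by synonym and 213 kept the older name. Probe sets with a mean at or above the median of all (6.56) were kept. Genes with at least 3 kept probe sets were joined by Tukey median polish, with a median of 11 probe sets.

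Smo shRNA was tested against control shRNA with limma 3.58.1 under R 4.3.3 (lmFit, eBayes with trend, no replicate block, two-sided), with Benjamini-Hochberg adjustment over all 16916 genes, or all 628416 kept probe sets, at 0.05. Differences are Smo shRNA minus control shRNA, SE is moderated, and the number of arrays limits the precision. The scripts were tested on simulated data. Alternatives changed the filter, the joining, the normalization, the variance model, the block and the arrays used.

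The members and lists were chosen with earlier results of these data known. Named were all members, up to 5 called genes per pathway list by adjusted p, up to 2 not called with the highest level, the 6 genes nearest Prkg1, and Smo.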

Additional observations from a re-analysis of the deposited data

How the results depend on the processing

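Each result was recomputed under 16 alternatives where they apply. Prkg1, Prkg2, Npr3, Pde5a, Pde1a and Pde2a kept their direction and passed the threshold in all 16, and Npr1 and Npr2 in none. The difference of Pde3b turned to -0.10 with the stricter filter, where it missed the threshold. That of Pde4d turned to -0.25 with the median of probe sets, where it passed as lower. The cause was not tested. The member count without 1 array was 2 to 3 higher and 4 to 5 lower. Genes called without 1 array numbered 2672 to 2919 higher and 2087 to 2783 lower, against 3594 and 2944 with all arrays. With no variance trend, 20924 probe sets were called higher and 19601 lower, against 43278 and 38086 with it. With the replicate block, 3797 genes were called higher and 3148 lower, and in the pathway lists 12 higher and 7 lower; the calls of Furin and Crip2 were lost and no other call of a named gene changed. Same-numbered arrays correlated by 0.08, 0.10 and 0.39 in their deviations from the group means. The highest correlation with another number was 0.31 for replicate 1, -0.0002 for replicate 2 and -0.07 for replicate 3. Replicates 2 and 3 thus correlated better with the same number and replicate 1 did not. So few correlations cannot settle whether the arrays were paired. Signal near the filter level limits Prkg1 with Smo shRNA, where 10 of 24 kept probe sets have a Smo shRNA mean below it. It also limits Pde3b (16 of 26 probe sets did not pass the filter) and Prkg2 (12 of 28). The difference of Prkg2 was 0.33 with no filter.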
